A study of Drosophila melanogaster with 14 samples.

Results

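Flies carrying the pan-neuronal driver elav-Gal4 alone were compared with flies carrying a UAS-APP transgene alone. Gal4 is a yeast transcription factor that switches on a gene placed behind its UAS target, so the amyloid precursor protein APP is meant to be made only where both parts are inherited. The study used both lines as controls for elav-Gal4 UAS-APP flies, and the direct comparison of the controls shows how far the lines differ when neither has the combination. The driver control is labelled Elav-Gal4;+;+ and the UAS-APP control w;UAS-APP;+. The lines therefore differ in the driver, the transgene and the white allele named, and the parts of driver, transgene, stock background and rearing in a difference cannot be told apart. The labels do not name the species of APP, and the transcript of the transgene was not analysed here.

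Each group held 2 libraries of RNA from about 50 flies, labelled as adult males aged 5 to 7 days and kept at room temperature on cornmeal food. These are 4 of the 14 libraries of the series. The sample labels call the tissue brain, dissected and fixed in paraformaldehyde, while the series description names heads. Of 14767 genes in the deposited table, all 9238 with at least 1 FPKM (fragments scaled to the gene's length and the size of the library) in 2 or more of the 4 libraries were compared. Driver control libraries held 19255996 and 19660279 fragments, and UAS-APP control libraries held 19566061 and 17613024. The labels do not say whether the replicate libraries were made from separately collected flies, so the p-values measure the spread between these libraries, which may be technical.

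A fly head holds the brain, the compound eyes and ocelli, the antennae and mouthparts, muscle, and a layer of fat body under the cuticle. The midgut lies outside the head and secretes trypsins, chymotrypsin-like Jonah proteases, amylases and lysozymes. The fat body makes storage proteins, yolk proteins in females, and the antimicrobial peptides that the Toll and Imd pathways switch on. In males, the RNAs roX1 and roX2 coat the X chromosome with the dosage compensation complex.

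Among the gene lists, digestive enzymes, antimicrobial peptides, yolk proteins and detoxification enzymes were mostly higher in the driver control. Transcripts of photoreceptors, neurons and synapses were mostly lower. Of the 9238 genes, 2462 were higher in the driver control and 2230 were lower, which is 26.7% and 24.1% of the genes tested. Calls rest on limma's moderated test of log2(FPKM + 1) with a Benjamini-Hochberg adjusted p under 0.05. Each difference is driver control minus UAS-APP control, less the median over all genes, which was -0.27 on the log2 scale, so the centred median is 0 and the quartiles were -0.31 and 0.34. Without this centring 1499 genes were higher and 4449 lower, so that 25.2% of calls were higher, in place of 52.5%. Differences of at least 1 on the log2 scale were found for 684 genes higher and 524 lower among those called, and differences of at least 2 for 108 higher and 73 lower.

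The replicate libraries of the driver control lay closer together than those of the UAS-APP control. The median absolute log2 difference between replicates was 0.0643 for driver control libraries and 0.155 for UAS-APP control libraries. A chi-square per gene on recovered fragments came to 3.0 for driver control libraries and 24.8 for UAS-APP control libraries, where sampling noise alone gives 1. The test assumes 1 spread for both groups, so errors are too large for one group and too small for the other. FPKM values of the groups did not overlap in 85.2% of the genes tested. Overlap was judged before centring, so the median shift of -0.27 enters this share. Groups of 2 drawn at random from 4 libraries would separate with a probability of 0.333. An exact permutation test of 2 libraries against 2 cannot give a p below 0.333, so no single gene can be tested in that way.

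**Figure D1:**
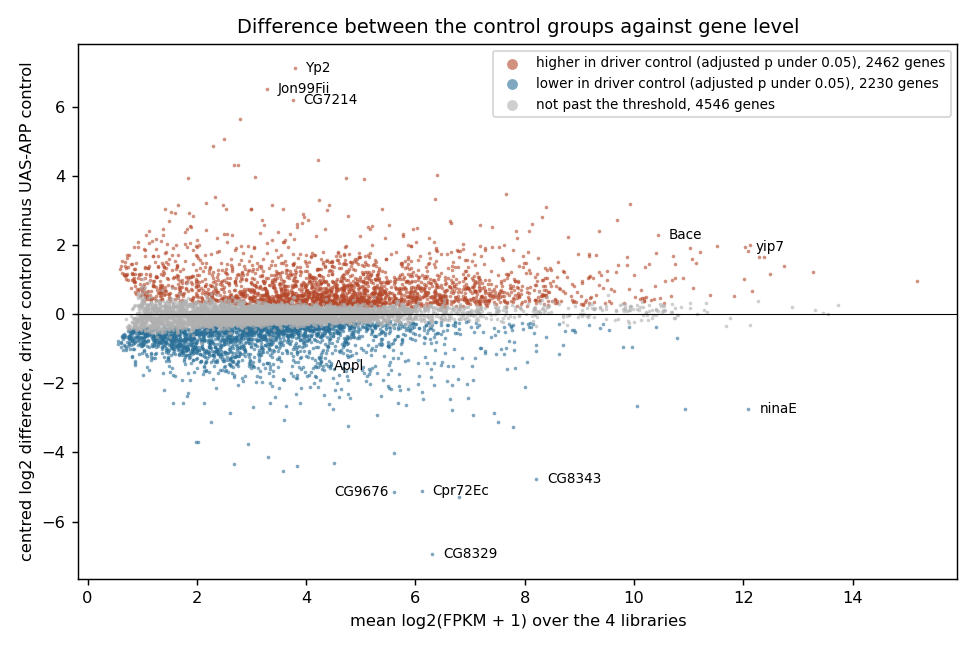
Centred log2 difference, driver control minus UAS-APP control, for each of the 9238 genes on the y axis against the mean log2(FPKM + 1) of the 4 libraries on the x axis. Red dots are the 2462 genes higher in the driver control, blue dots the 2230 lower ones, and grey dots the 4546 not past the threshold. Yolk protein gene Yp2 and the protease gene Jon99Fii stand highest, CG8329 stands lowest, and the rhodopsin gene ninaE is the most abundant of the named genes on the lower side.

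Direction depended on level. Among the 2606 genes with a mean under 5 FPKM, 15.04% were higher and 31.4% lower in the driver control. From 5 to 20 FPKM, 20.4% of 3627 genes were higher and 24.2% lower. From 20 to 100 FPKM the shares were 40.6% higher and 19.4% lower of 2224 genes. Among the 781 genes at 100 FPKM or more, 54.8% were higher and 13.1% lower. The median difference was 0.14 from 20 to 100 FPKM and 0.36 at 100 FPKM or more.

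**Figure D2:**
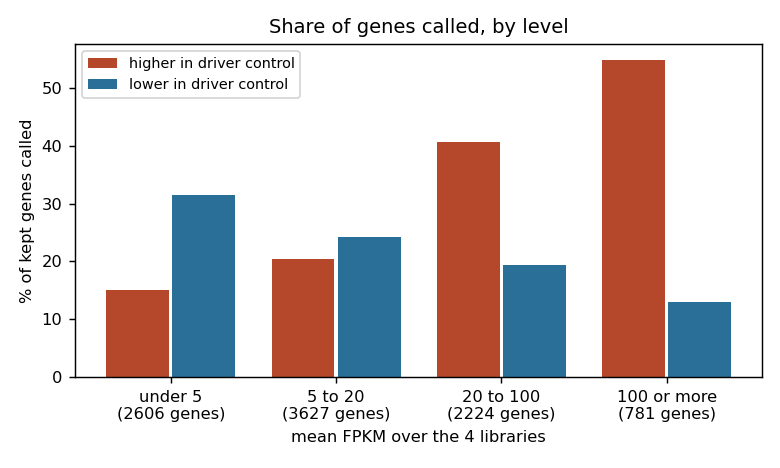
Percent of genes called higher (red) or lower (blue) in the driver control, in 4 ranges of mean FPKM over the 4 libraries. Genes called higher made up 15.04% of the weakest range and 54.8% of the most abundant one, and genes called lower 31.4% and 13.1%.

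Genes of digestion were higher in the driver control. Of 54 tested genes for midgut proteases, carbohydrases, lysozymes and peritrophic matrix proteins, 47 were higher and 3 lower, with a median log2 difference of 1.33. Together, all 62 genes of these lists took 9.94% and 10.1% of fragments in driver control libraries, against 4.90% and 5.27% in UAS-APP control libraries. Midgut transcripts were thus abundant in both groups, although neither label names gut, and they outweighed the neuronal lists described further on, which took under 2% of fragments in all 4 libraries. In bulk RNA, more cells of a type and more RNA per cell cannot be told apart.

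The listed Jonah and trypsin genes, which encode serine proteases, carried most of this. Serine protease genes outside this list were not counted. Of 25 tested Jonah and trypsin genes, which cut dietary protein, 23 were higher and 0 lower, with a median of 1.76. It was 1.80 with the genes absent from one group put at the limit set by 3 fragments. That limit is a ratio of FPKM values without the added 1, so 1.80 is not a lower bound of the median. The list took 5.17% and 5.22% of fragments in driver control libraries, against 2.197% and 2.38% in UAS-APP control libraries. The most abundant member was alphaTry, a trypsin gene, with 13568 and 14049 FPKM in driver control libraries, against 6862 and 7399 FPKM in UAS-APP control libraries, a log2 difference of 1.23 ± 0.16 (SE, adjusted p = 0.00112), a call lost when either driver control library was left out. Its neighbour betaTry had 9927 and 10129 FPKM in the driver control and 4519 and 4779 FPKM in the UAS-APP control, and the midgut protease gene yip7 had 7379.8 and 7409 FPKM in the driver control and 2304 and 2382 FPKM in the UAS-APP control. All 3 were higher in the driver control, with log2 differences of 1.23, 1.38 and 1.93 and no overlap between groups. Some Jonah genes were nearly restricted to the driver control. Jon99Fii (chromosome arm 3R, 30487016 to 30487928, build BDGP6, like all positions here) had 81.2 and 86.4 FPKM in driver control libraries, against 0 and 0.249 FPKM in UAS-APP control libraries, a log2 difference of 6.52 ± 0.13 (SE, adjusted p = 8.78e-07). Jon65Ai (3L, 6053493 to 6054443) had 22.1 and 24.2 FPKM in driver control libraries and no fragment in either UAS-APP control library, which makes it at least 136-fold higher against a floor of 3 fragments per library. Jonah genes next to each other on a chromosome differed by unlike amounts: Jon25Biii had 76.5 and 79.1 FPKM in the driver control and 3.09 and 3.64 FPKM in the UAS-APP control, a log2 difference of 4.45, beside 3.46 for Jon25Bi and 1.95 for Jon25Bii. The trypsin genes deltaTry and gammaTry did not pass and stayed under 5 FPKM in all 4 libraries. Trypsin and Jonah genes have near-identical copies, so single values are uncertain.

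Amylases and maltases, which digest starch and sugar, were mostly higher too. Of 14 genes of this kind, 11 were higher and 2 lower, with a median of 1.06, which stayed 1.06 with the gene absent from one group at its limit. The amylase gene Amy-p had 7968 and 8179 FPKM in driver control libraries, against 2726 and 3512 FPKM in UAS-APP control libraries, a log2 difference of 1.65 ± 0.17 (SE, adjusted p = 3.62e-04). Its near-identical partner Amy-d had 5309.6 and 5306 FPKM in the driver control and 1494 and 1759 FPKM in the UAS-APP control, a log2 difference of 1.98 ± 0.13 (SE, adjusted p = 7.56e-05). Among maltases, the largest difference was that of Mal-A4, with 37.0 and 37.8 FPKM in the driver control and 5.55 and 6.52 FPKM in the UAS-APP control (log2 difference 2.72, adjusted p = 7.73e-06). Mal-B1, also a maltase, and tobi, an alpha-glucosidase gene under control of insulin-like and adipokinetic hormones, went the other way. Mal-B1 stood at 1.23 and 1.15 FPKM in the driver control and 5.72 and 5.54 FPKM in the UAS-APP control, and tobi at 763 and 775 FPKM in the driver control and 1235 and 1161 FPKM in the UAS-APP control (adjusted p = 1.89e-04 for Mal-B1 and 0.0168 for tobi, the second lost when either driver control library was left out).

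Of the 7 digestive lysozyme genes, 6 were higher and 1 lower. LysD, which helps digest bacteria in food, had 3397 and 3404 FPKM in driver control libraries, against 1353 and 1586 FPKM in UAS-APP control libraries, a log2 difference of 1.49 ± 0.13 (SE, adjusted p = 1.87e-04). LysP fell, with 576 and 585 FPKM in the driver control and 1441 and 1299 FPKM in the UAS-APP control, a log2 difference of -0.96 ± 0.10 (SE, adjusted p = 3.88e-04). Mucins and peritrophins, which line the gut lumen, were higher in 7 of 8 tested members, led by Muc68E with 30.1 and 29.8 FPKM in the driver control and 5.46 and 5.53 FPKM in the UAS-APP control (log2 difference 2.52, adjusted p = 6.51e-06). The triglyceride and cholesterol ester lipase gene mag, known as magro, rose as well, with 52.8 and 53.9 FPKM in driver control libraries, against 8.10 and 6.15 FPKM in UAS-APP control libraries, a log2 difference of 3.02 ± 0.12 (SE, adjusted p = 1.32e-05). It was 1 of 5 tested genes of gut lipid and sterol uptake, 3 of them higher and 1 lower.

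Transcription factors and hormones of the gut did not all move with its enzymes. Of 10 tested gut transcription factors, 6 were higher and 2 lower. GATAe, which maintains midgut identity, had 19.9 and 19.9 FPKM in the driver control and 10.2 and 14.5 FPKM in the UAS-APP control, and vnd had 25.6 and 24.8 FPKM in the driver control and 13.1 and 10.8 FPKM in the UAS-APP control, both higher (log2 differences 0.93 and 1.29). The enteroendocrine and neuronal factor gene pros was lower, with 1.51 and 1.64 FPKM in the driver control and 4.75 and 3.38 FPKM in the UAS-APP control (log2 difference -0.69, adjusted p = 0.0103). Peptides shared by gut and brain were mostly lower, in 8 of 11 tested genes. CCHa1 did not pass. CCHa2, a nutrient-dependent peptide of gut and fat body, and Tk, which encodes tachykinins, were higher. CCHa2 had 479.6 and 489 FPKM in driver control libraries, against 220.3 and 258 FPKM in UAS-APP control libraries, a log2 difference of 1.29 ± 0.10 (SE, adjusted p = 1.33e-04). Tk had 44.6 and 44.7 FPKM in the driver control and 28.5 and 27.5 FPKM in the UAS-APP control, a log2 difference of 0.92 ± 0.07 (SE, adjusted p = 1.48e-04). Malpighian tubule genes went both ways, 4 higher and 3 lower of 8 tested. The tubule genes Uro and salt were under the floor of 3 fragments in all 4 libraries.

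**Figure D3:**
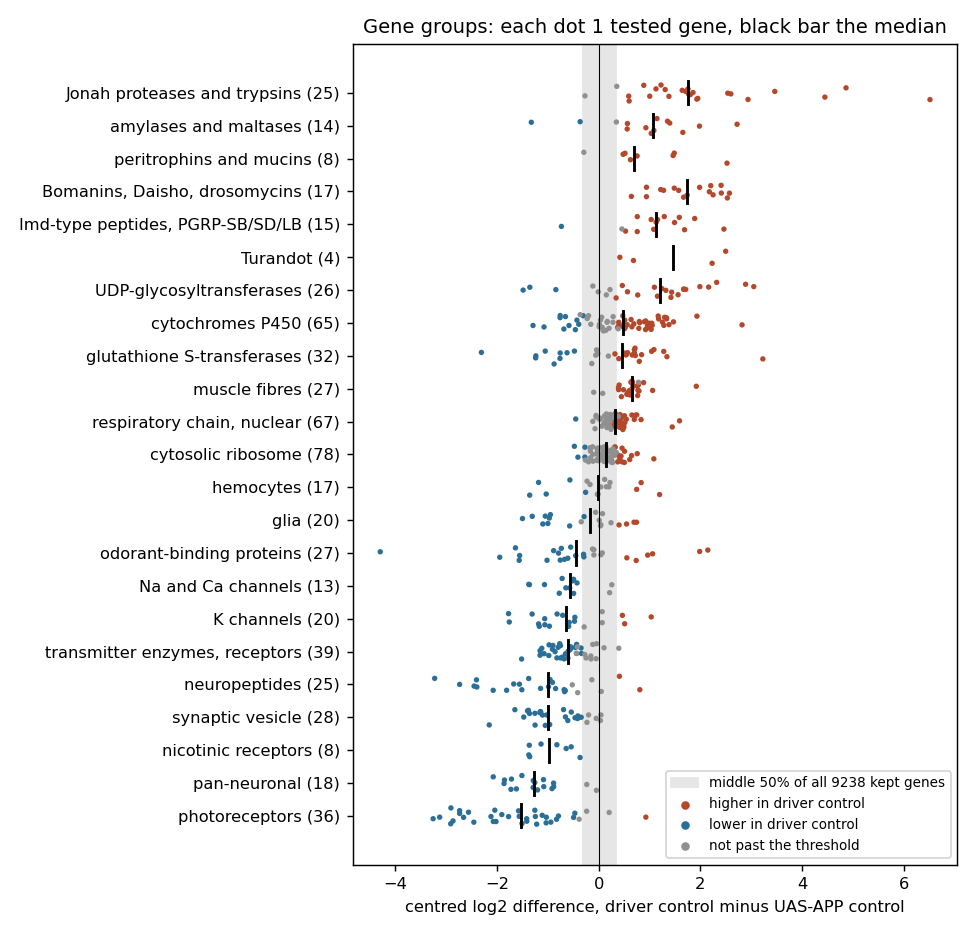
Centred log2 difference, driver control minus UAS-APP control, for the tested members of 23 gene groups (number of genes in brackets). Each dot is 1 gene, red where higher and blue where lower in the driver control and grey where not past the threshold, black bars are medians, and the grey band holds the middle 50% of all 9238 genes. Medians of proteases, Bomanins and other immune peptides lie to the right of the band, and those of photoreceptor, pan-neuronal and synaptic genes to its left.

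Photoreceptor genes showed the lowest median of the lists. Of 36 tested genes of the phototransduction cascade and the visual cycle, 32 were lower in the driver control and 1 was higher, with a median of -1.54. They took 0.777% and 0.786% of fragments in driver control libraries, against 5.67% and 4.64% in UAS-APP control libraries. Rhodopsins are the light receptors of these cells. The main rhodopsin gene ninaE, active in the outer photoreceptors, had 1523 and 1552 FPKM in driver control libraries, against 13491 and 11358 FPKM in UAS-APP control libraries, a log2 difference of -2.74 ± 0.15 (SE, adjusted p = 3.36e-05). Both UAS-APP control libraries stood far above both driver control libraries. The ultraviolet opsin genes Rh3 and Rh4 had 44.5 and 42.0 FPKM in the driver control and 439 and 364 FPKM in the UAS-APP control for Rh3, and 63.3 and 63.8 FPKM in the driver control and 827 and 669 FPKM in the UAS-APP control for Rh4. Rh5, the blue opsin gene, had 11.5 and 12.7 FPKM in the driver control and 123 and 112 FPKM in the UAS-APP control, and the green opsin gene Rh6 had 18.0 and 18.5 FPKM in the driver control and 149 and 125 FPKM in the UAS-APP control. These 5 opsin genes of the compound eye were all lower, by log2 differences between -2.56 and -3.26. The opsin gene of the ocelli, Rh2, was lower by less, with 77.5 and 80.7 FPKM in the driver control and 228 and 232 FPKM in the UAS-APP control, a log2 difference of -1.26 ± 0.07 (SE, adjusted p = 4.61e-05).

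Downstream of rhodopsin, the same direction held. The arrestin genes Arr1 and Arr2, whose products switch rhodopsin off, had log2 differences of -2.66 and -2.74. Arr2 stood at 682 and 693 FPKM in driver control libraries, against 6129 and 5005 FPKM in UAS-APP control libraries. The light-gated channel genes trp and trpl had 57.3 and 57.1 FPKM in the driver control and 578 and 453 FPKM in the UAS-APP control for trp, and 54.5 and 55.9 FPKM in the driver control and 671 and 523 FPKM in the UAS-APP control for trpl (log2 difference -2.87, adjusted p = 1.47e-05 and log2 difference -3.13, adjusted p = 1.13e-05). The phospholipase C gene norpA had 22.5 and 21.4 FPKM in the driver control and 143 and 93.1 FPKM in the UAS-APP control, a log2 difference of -2.07 ± 0.19 (SE, adjusted p = 2.27e-04). Genes outside this cascade went both ways. The corneal lens gene retinin had 569 and 586 FPKM in driver control libraries, against 1053 and 886 FPKM in UAS-APP control libraries, a log2 difference of -0.47 ± 0.11 (SE, adjusted p = 0.0122), which did not pass when either driver control library was left out. The retinoid-binding gene pinta went the other way, with 41.7 and 40.8 FPKM in the driver control and 23.6 and 28.2 FPKM in the UAS-APP control, a log2 difference of 0.93 ± 0.10 (SE, adjusted p = 4.63e-04).

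Eye pigment genes were split. Of 20 tested, 6 were lower and 4 higher. The white gene w (X, 2790599 to 2796466) encodes a subunit of the transporters that load pigment granules, and the label of the UAS-APP control, not that of the driver control, names a w allele. It had 16.0 and 17.0 FPKM in driver control libraries, against 47.0 and 40.1 FPKM in UAS-APP control libraries, a log2 difference of -1.07 ± 0.10 (SE, adjusted p = 2.65e-04). Its transport partners bw and st were lower too: bw had 2.73 and 2.84 FPKM in the driver control and 28.2 and 23.8 FPKM in the UAS-APP control, and st had 2.69 and 2.46 FPKM in the driver control and 8.72 and 7.80 FPKM in the UAS-APP control (log2 differences -2.56 and -1.1004). Among the 4 higher genes were the phenylalanine hydroxylase gene Hn with 352 and 361 FPKM in the driver control and 164 and 215 FPKM in the UAS-APP control (log2 difference 1.19, adjusted p = 4.91e-04) and the xanthine dehydrogenase gene ry with 17.0 and 16.8 FPKM in the driver control and 10.4 and 13.8 FPKM in the UAS-APP control (log2 difference 0.74, adjusted p = 0.00371).

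**Figure D4:**
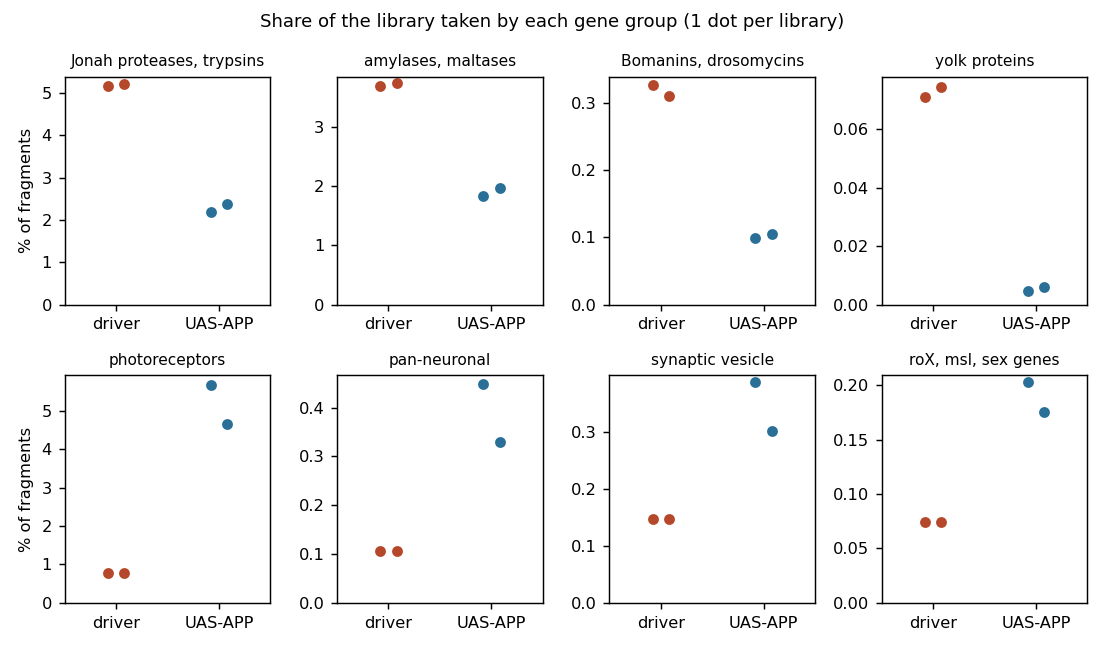
Percent of fragments of each library (1 dot per library) taken by 8 gene lists, driver control in red on the left and UAS-APP control in blue on the right. Proteases, amylases, Bomanins and yolk proteins took a larger share in both driver control libraries, and photoreceptor, pan-neuronal, synaptic vesicle and roX, msl and sex determination genes in both UAS-APP control libraries.

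Neuronal genes were lower in the driver control. Of 126 tested genes for pan-neuronal proteins, vesicle release, ion channels, transmitter synthesis and receptors, 100 were lower and 3 higher, with a median of -0.75. All 132 genes together took 0.486% and 0.484% of fragments in driver control libraries, against 1.36% and 1.05% in UAS-APP control libraries. The part of the larger midgut share of the driver control libraries in these lower values was not tested. Centring on the median of genes outside the gut lists left 2479 genes higher and 2207 lower. The gut lists are a small part of all genes, and the subtracted median moved only from -0.2715 to -0.2753. These counts therefore cannot show what part the midgut share had.

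The gene elav (X, 509235 to 523226), which encodes a neuronal RNA-binding protein and whose control region drives the Gal4 line, had 2.22 and 2.41 FPKM in driver control libraries, against 10.1 and 6.63 FPKM in UAS-APP control libraries, a log2 difference of -1.20 ± 0.18 (SE, adjusted p = 0.00197). Of 18 tested pan-neuronal genes 16 were lower and 0 higher, with a median of -1.27. The neuronal synaptobrevin gene nSyb, a fusion protein of synaptic vesicles, had 18.5 and 19.4 FPKM in driver control libraries, against 114 and 88.3 FPKM in UAS-APP control libraries, a log2 difference of -2.08 ± 0.13 (SE, adjusted p = 5.16e-05). The calcium sensor of release, Syt1, had 9.48 and 9.34 FPKM in the driver control and 44.2 and 32.0 FPKM in the UAS-APP control, a log2 difference of -1.62 ± 0.15 (SE, adjusted p = 2.43e-04). The active zone scaffold gene brp had 2.58 and 2.58 FPKM in the driver control and 11.1 and 7.82 FPKM in the UAS-APP control, a log2 difference of -1.26 ± 0.16 (SE, adjusted p = 9.37e-04). The 2 members that did not pass were the adhesion genes Nrg and Fas2, which also function outside neurons. Nrg had 10.7 and 10.97 FPKM in the driver control and 14.5 and 13.1 FPKM in the UAS-APP control, and passed as lower without centring.

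Among 28 genes of vesicle release, 23 were lower and 0 higher, with a median of -0.99. The plasma membrane fusion gene Snap25 had 18.7 and 19.9 FPKM in driver control libraries, against 131 and 88.8 FPKM in UAS-APP control libraries, a log2 difference of -2.15 ± 0.17 (SE, adjusted p = 1.47e-04). The vesicular transporters for glutamate and acetylcholine, VGlut and VAChT, were lower by log2 differences of -1.65 and -1.16. Eps-15, an endocytosis gene of many cell types, had 12.5 and 12.3 FPKM in the driver control and 20.4 and 18.8 FPKM in the UAS-APP control (log2 difference -0.34, adjusted p = 0.0144), a call lost when either driver control library was left out.

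Sodium and calcium channel genes were lower in 11 of 13 and higher in 0, with a median of -0.57. The presynaptic calcium channel gene cac had 1.93 and 1.86 FPKM in driver control libraries, against 9.30 and 6.84 FPKM in UAS-APP control libraries, a log2 difference of -1.36 ± 0.15 (SE, adjusted p = 5.06e-04). Its auxiliary subunit gene stj had 3.45 and 3.73 FPKM in the driver control and 15.8 and 11.3 FPKM in the UAS-APP control, a log2 difference of -1.38 ± 0.16 (SE, adjusted p = 5.86e-04). The 2 intracellular calcium release channels, RyR and Itpr, did not pass (adjusted p = 0.128 and 0.0578), although both passed as higher with quantile normalization. Potassium channel genes were lower in 14 of 20 and higher in 3. The regulators Slob and qvr, which act on slowpoke and Shaker channels, had log2 differences of -1.77 and -1.76. Sh, the Shaker channel gene, had 2.04 and 1.90 FPKM in the driver control and 8.74 and 5.80 FPKM in the UAS-APP control, a log2 difference of -1.18 ± 0.18 (SE, adjusted p = 0.00187). Shal (3L, 19566851 to 19584568), the Kv4 channel gene mutated in another line of the series, had 10.5 and 9.696 FPKM in driver control libraries, against 19.1 and 16.1 FPKM in UAS-APP control libraries, a log2 difference of -0.47 ± 0.11 (SE, adjusted p = 0.0107), and did not pass without driver control replicate 2. KCNQ went the other way, with 20.6 and 20.46 FPKM in the driver control and 11.4 and 12.01 FPKM in the UAS-APP control, a log2 difference of 1.03 ± 0.08 (SE, adjusted p = 1.47e-04). The heat-activated channel gene TrpA1 (3L, 8894404 to 8904790) was higher, with 2.92 and 2.83 FPKM in driver control libraries, against 1.38 and 1.78 FPKM in UAS-APP control libraries, a log2 difference of 0.86 ± 0.13 (SE, adjusted p = 0.00208), although neither label names a TrpA1 transgene.

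All 8 tested nicotinic acetylcholine receptor genes were lower, with a median of -0.98, and nAChRalpha3 was under 1 FPKM and not tested. nAChRalpha7 had 2.52 and 2.68 FPKM in the driver control and 11.5 and 8.94 FPKM in the UAS-APP control, a log2 difference of -1.36 ± 0.13 (SE, adjusted p = 3.46e-04). Of 39 other genes for receptors and transmitter synthesis, 28 were lower and 0 higher. The dopamine and ecdysteroid receptor gene DopEcR had 7.46 and 7.18 FPKM in the driver control and 32.9 and 23.4 FPKM in the UAS-APP control, a log2 difference of -1.52 ± 0.15 (SE, adjusted p = 3.75e-04). The GABA receptor gene Rdl had 3.16 and 2.94 FPKM in the driver control and 11.2 and 8.29 FPKM in the UAS-APP control, a log2 difference of -1.12 ± 0.15 (SE, adjusted p = 0.00101). The synthesis genes ple and Ddc, which also serve cuticle tanning, did not pass, although both passed as lower without centring. ple had 45.2 and 44.6 FPKM in the driver control and 52.0 and 61.4 FPKM in the UAS-APP control, and Ddc had 39.8 and 42.0 FPKM in the driver control and 51.1 and 51.1 FPKM in the UAS-APP control.

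Neuropeptide genes were mostly lower as well. Of 25 tested genes for peptides and their processing, 19 were lower and 2 higher, with a median of -0.99. Ilp2, an insulin-like peptide of brain neurosecretory cells, had 6.74 and 7.44 FPKM in driver control libraries, against 103 and 79.1 FPKM in UAS-APP control libraries, a log2 difference of -3.23 ± 0.13 (SE, adjusted p = 1.32e-05). Pdf, the peptide of clock neurons, had 6.49 and 7.48 FPKM in driver control libraries, against 70.4 and 56.6 FPKM in UAS-APP control libraries, a log2 difference of -2.74 ± 0.12 (SE, adjusted p = 2.01e-05). The drosulfakinin gene Dsk, a satiety peptide of the same brain region as Ilp2, had 38.2 and 36.7 FPKM in the driver control and 262 and 245 FPKM in the UAS-APP control, a log2 difference of -2.45 ± 0.08 (SE, adjusted p = 5.68e-06). Akh and Nplp3 went opposite ways. The adipokinetic hormone gene Akh, from the corpora cardiaca beside the gut, was lower, with 238 and 243 FPKM in the driver control and 409 and 524 FPKM in the UAS-APP control, a log2 difference of -0.67 ± 0.12 (SE, adjusted p = 0.00459). Nplp3, a neuropeptide-like precursor gene, was higher, with 1597 and 1606 FPKM in the driver control and 1036 and 1176 FPKM in the UAS-APP control, a log2 difference of 0.81 ± 0.11 (SE, adjusted p = 0.00119).

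Glial genes were split, with 9 lower and 4 higher of 20 and a median of -0.17. The glial transcription factor gene repo had 2.097 and 2.24 FPKM in driver control libraries, against 9.01 and 7.96 FPKM in UAS-APP control libraries, a log2 difference of -1.31 ± 0.11 (SE, adjusted p = 1.94e-04), and the astrocyte-like gene alrm had 14.5 and 14.3 FPKM in the driver control and 41.0 and 34.2 FPKM in the UAS-APP control, a log2 difference of -1.05 ± 0.10 (SE, adjusted p = 3.35e-04). The glutamate transporter genes went opposite ways. Eaat2 had 19.5 and 19.8 FPKM in the driver control and 77.5 and 62.1 FPKM in the UAS-APP control, a log2 difference of -1.50 ± 0.11 (SE, adjusted p = 1.21e-04). Eaat1 had 185 and 186 FPKM in the driver control and 156 and 151 FPKM in the UAS-APP control, a log2 difference of 0.55 ± 0.07 (SE, adjusted p = 0.00113), which did not pass with quantile normalization. Clock genes went both ways, with 5 lower and 2 higher of 13, between -2.74 for Pdf and 1.04 for to. The period gene per had 6.70 and 7.02 FPKM in the driver control and 14.2 and 13.4 FPKM in the UAS-APP control (log2 difference -0.64, adjusted p = 0.00142). Of 11 genes listed as induced by neuronal activity, 7 were lower and 1 higher. Arc1, whose product forms capsid-like shells, had 38.6 and 41.1 FPKM in driver control libraries, against 166 and 129.7 FPKM in UAS-APP control libraries, a log2 difference of -1.58 ± 0.12 (SE, adjusted p = 1.33e-04). The immediate early transcription factor gene cbt rose, with 52.1 and 55.3 FPKM in the driver control and 28.6 and 28.1 FPKM in the UAS-APP control, a log2 difference of 1.17 ± 0.08 (SE, adjusted p = 6.57e-05).

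Chemosensory genes were lower on balance. Of 27 tested odorant-binding protein genes, 16 were lower and 6 higher, with a median of -0.45. Obp56g (2R, 19783484 to 19784043) had 3.99 and 3.39 FPKM in driver control libraries, against 113 and 108 FPKM in UAS-APP control libraries, a log2 difference of -4.30 ± 0.09 (SE, adjusted p = 1.05e-06). Obp57a went the other way, with 109 and 107 FPKM in the driver control and 28.3 and 36.9 FPKM in the UAS-APP control, a log2 difference of 1.99 ± 0.12 (SE, adjusted p = 6e-05). Only 13 of 164 receptor genes were high enough to test, and 10 of these were lower and 1 higher. The odorant receptor gene Or71a, expressed in the maxillary palp, had 0.254 and 0.248 FPKM in driver control libraries, against 7.92 and 7.88 FPKM in UAS-APP control libraries, a log2 difference of -2.56 ± 0.12 (SE, adjusted p = 1.93e-05). Orco, the co-receptor of most odorant receptors, had 5.67 and 5.37 FPKM in the driver control and 12.7 and 10.0 FPKM in the UAS-APP control, a log2 difference of -0.64 ± 0.13 (SE, adjusted p = 0.00586).

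The endogenous homolog of the transgene was lower in the driver control. Appl (X, 530501 to 579044), the fly amyloid precursor protein gene, which is expressed in neurons, had 9.50 and 9.98 FPKM in driver control libraries, against 41.8 and 30.9 FPKM in UAS-APP control libraries, a log2 difference of -1.51 ± 0.14 (SE, adjusted p = 2.70e-04). Of 17 genes for the precursor, its secretases, adaptors and tau, 8 were lower and 2 higher. Bace, the fly counterpart of beta-secretase, had 2737 and 2809 FPKM in driver control libraries, against 768 and 618 FPKM in UAS-APP control libraries, a log2 difference of 2.28 ± 0.13 (SE, adjusted p = 4.37e-05). This placed Bace among the abundant transcripts of both groups, while the cells that held its RNA were not examined. The presenilin gene Psn, the catalytic subunit of gamma-secretase, had 21.1 and 20.6 FPKM in the driver control and 14.6 and 15.1 FPKM in the UAS-APP control, a log2 difference of 0.73 ± 0.08 (SE, adjusted p = 4.80e-04), and pen-2, another subunit, had 2.42 and 2.196 FPKM in the driver control and 6.88 and 7.16 FPKM in the UAS-APP control, a log2 difference of -1.01 ± 0.11 (SE, adjusted p = 4.45e-04). The Cdk5 activator gene Cdk5alpha, a neuronal gene, had 8.48 and 7.33 FPKM in the driver control and 41.3 and 32.1 FPKM in the UAS-APP control, a log2 difference of -1.80 ± 0.14 (SE, adjusted p = 1.20e-04).

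Immune peptides were higher in the driver control. All 17 tested genes for Bomanins, Daisho peptides and drosomycins, which the Toll pathway controls, rose, with a median of 1.74. They took 0.326% and 0.310% of fragments in driver control libraries, against 0.0987% and 0.105% in UAS-APP control libraries. The Bomanin gene BomBc2 had 1368 and 1396 FPKM in driver control libraries, against 267 and 369 FPKM in UAS-APP control libraries, a log2 difference of 2.41 ± 0.15 (SE, adjusted p = 6.43e-05). BomS3, also a Bomanin, had 455 and 449 FPKM in the driver control and 120.2 and 115.1 FPKM in the UAS-APP control, a log2 difference of 2.204 ± 0.08 (SE, adjusted p = 6.93e-06). The antifungal peptide gene Drs had 121 and 109 FPKM in the driver control and 50.6 and 47.4 FPKM in the UAS-APP control, a log2 difference of 1.49 ± 0.09 (SE, adjusted p = 4.54e-05). Members differed in how well the UAS-APP control libraries matched, and for Dso2 they stood at 58.2 and 17.8 FPKM, beside 126 and 93.3 FPKM in the driver control (adjusted p = 0.0128). Its log2 difference of 1.98 was 1.17 without UAS-APP control replicate 2, and it did not pass with no filter on low values.

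Of 15 tested Imd-dependent antimicrobial genes, 13 were higher and 1 lower, with a median of 1.13. The attacin gene AttC had 44.4 and 48.0 FPKM in driver control libraries, against 18.3 and 17.6 FPKM in UAS-APP control libraries, a log2 difference of 1.58 ± 0.08 (SE, adjusted p = 3.05e-05). The cecropin gene CecA1 had 4.14 and 5.10 FPKM in the driver control and 0 and 0.502 FPKM in the UAS-APP control, a log2 difference of 2.46 ± 0.21 (SE, adjusted p = 2.07e-04). AttB went the other way, with 3.72 and 3.30 FPKM in the driver control and 8.08 and 8.01 FPKM in the UAS-APP control, a log2 difference of -0.73 ± 0.10 (SE, adjusted p = 0.00148), and its copy AttA had 5.26 and 5.86 FPKM in the driver control and 1.0998 and 1.87 FPKM in the UAS-APP control, and the values of these near-identical copies are uncertain. Of 13 peptidoglycan recognition genes, 9 were higher and 1 lower, with a median of 0.58 that stayed 0.58 with absent genes at their limit. PGRP-SC1a (2R, 8709733 to 8710320), an amidase of the gut that degrades bacterial wall fragments, had 13.1 and 10.5 FPKM in driver control libraries and no fragment in the UAS-APP control, at least 42.8-fold higher. PGRP-SA, a circulating receptor of the Toll pathway, had 37.3 and 41.3 FPKM in the driver control and 15.3 and 18.1 FPKM in the UAS-APP control, a log2 difference of 1.47 ± 0.11 (SE, adjusted p = 1.03e-04).

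The Turandot stress peptides rose in all 4 tested genes, with TotA at 883 and 859.7 FPKM in driver control libraries, against 177 and 281 FPKM in UAS-APP control libraries, a log2 difference of 2.23 ± 0.20 (SE, adjusted p = 2.28e-04). Hemocyte genes did not follow the peptides, with 5 lower and 3 higher of 17. The hemocyte gene Hml, hemolectin, had 4.35 and 4.62 FPKM in the driver control and 14.6 and 13.5 FPKM in the UAS-APP control, a log2 difference of -1.18 ± 0.10 (SE, adjusted p = 1.63e-04). The crystal cell factor gene lz, which is also active in the eye, had 0.659 and 0.557 FPKM in the driver control and 4.75 and 3.31 FPKM in the UAS-APP control, a log2 difference of -1.36 ± 0.17 (SE, adjusted p = 8.31e-04).

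Yolk proteins and dosage compensation RNAs differed between lines that are both labelled male. The yolk protein genes, normally made by the female fat body and ovary, were all higher in the driver control. Yp2 (X, 10050951 to 10052636) had 145 and 150.4 FPKM in driver control libraries, against 0.316 and 0.281 FPKM in UAS-APP control libraries, a log2 difference of 7.11 ± 0.08 (SE, adjusted p = 1.40e-07). Yp1 (X, 10053811 to 10055498) had 28.2 and 29.4 FPKM in driver control libraries, against 0.127 and 0.0352 FPKM in UAS-APP control libraries, a log2 difference of 5.06 ± 0.11 (SE, adjusted p = 9.85e-07), and Yp3 had 230.2 and 242 FPKM in driver control libraries, against 24.4 and 31.4 FPKM in UAS-APP control libraries, a log2 difference of 3.32 ± 0.12 (SE, adjusted p = 7.82e-06). Both driver control libraries stood above both UAS-APP control libraries for all 3 genes. The male RNAs were lower in the driver control. lncRNA:roX2 had 7.40 and 6.88 FPKM in driver control libraries, against 50.4 and 47.4 FPKM in UAS-APP control libraries, a log2 difference of -2.34 ± 0.08 (SE, adjusted p = 7.82e-06). lncRNA:roX1 had 69.7 and 70.8 FPKM in driver control libraries, against 262 and 224 FPKM in UAS-APP control libraries, a log2 difference of -1.50 ± 0.10 (SE, adjusted p = 6.15e-05). Both RNAs were detected in all 4 libraries.

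Of 14 genes for sex determination and dosage compensation, 8 were lower and 1 higher. The complex genes msl-2 and mle were lower by log2 differences of -0.47 and -0.65, of which msl-2 did not pass without driver control replicate 2. The sex differentiation gene dsx had 8.87 and 8.76 FPKM in the driver control and 6.66 and 6.81 FPKM in the UAS-APP control, a log2 difference of 0.61 ± 0.09 (SE, adjusted p = 0.00179). Eggshell and oocyte genes did not rise: 3 of 27 were high enough to test, none passed, and osk and bcd were listed at 0 in all 4 libraries. Of 20 testis genes 2 were tested, of which the meiosis gene bol was lower (log2 difference -0.73, adjusted p = 0.00853), and of 21 seminal fluid genes only Est-6, an enzyme made in other tissues too, was tested and did not pass. The sex of the flies in each pool was not tested beyond these genes.

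Genes of the fat body went both ways. Of 18 tested, 9 were higher and 6 lower. Larval storage hexamerins were split by gene. Lsp1beta had 33.5 and 35.2 FPKM in driver control libraries, against 268 and 313 FPKM in UAS-APP control libraries, a log2 difference of -2.77 ± 0.10 (SE, adjusted p = 6.93e-06). Lsp1gamma had 27.0 and 28.0 FPKM in driver control libraries, against 1.96 and 3.93 FPKM in UAS-APP control libraries, a log2 difference of 3.17 ± 0.22 (SE, adjusted p = 9.01e-05). The takeout gene to, which responds to feeding and the clock, had 793 and 793 FPKM in the driver control and 362 and 594 FPKM in the UAS-APP control (log2 difference 1.04, adjusted p = 0.00678), and its log2 difference was 0.68 without UAS-APP control replicate 1. The sex-regulated head gene sxe2 was lower, with 146 and 149 FPKM in the driver control and 459.9 and 480.4 FPKM in the UAS-APP control, a log2 difference of -1.39 ± 0.08 (SE, adjusted p = 3.97e-05). Of 16 tested genes of fatty acid and fat synthesis, 10 were higher and 2 lower, and the desaturase gene Desat1 had 1855 and 1854 FPKM in driver control libraries, against 721 and 928 FPKM in UAS-APP control libraries, a log2 difference of 1.45 ± 0.14 (SE, adjusted p = 2.94e-04). Of 11 tested genes of the head fat body known to differ between the sexes, a list that holds the yolk protein genes and sxe2, 7 were higher and 4 lower. The gene fit, female-biased in the head fat body, had 33.7 and 34.4 FPKM in the driver control and 56.6 and 84.7 FPKM in the UAS-APP control (log2 difference -0.73, adjusted p = 0.0122), and the male-biased P450 gene Cyp4d21 had 177 and 181 FPKM in the driver control and 262 and 274 FPKM in the UAS-APP control (log2 difference -0.31, adjusted p = 0.0146). The difference of fit was -0.43 without UAS-APP control replicate 2, and Cyp4d21 did not pass when either driver control library was left out. The transport gene whd, which carries fatty acids into mitochondria, had 223 and 222 FPKM in the driver control and 71.1 and 89.9 FPKM in the UAS-APP control, a log2 difference of 1.74 ± 0.12 (SE, adjusted p = 7.56e-05).

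Detoxification enzymes were higher in most members. UDP-glycosyltransferases, which attach sugars to foreign compounds, rose in 19 of 26 tested genes and fell in 3, with a median of 1.20. Ugt37A2 had 35.8 and 38.8 FPKM in driver control libraries, against 5.32 and 5.15 FPKM in UAS-APP control libraries, a log2 difference of 2.89 ± 0.09 (SE, adjusted p = 4.95e-06). Ugt35C1 had 110.2 and 109 FPKM in the driver control and 24.8 and 26.6 FPKM in the UAS-APP control, a log2 difference of 2.32 ± 0.08 (SE, adjusted p = 6.51e-06). Cytochrome P450 enzymes rose in 36 of 65 and fell in 11, with a median of 0.47. Cyp6d5 had 767 and 774 FPKM in driver control libraries, against 125 and 137 FPKM in UAS-APP control libraries, a log2 difference of 2.82 ± 0.09 (SE, adjusted p = 4.95e-06). Cyp6g1, known for insecticide resistance in this species, had 475 and 482 FPKM in the driver control and 203 and 257 FPKM in the UAS-APP control, a log2 difference of 1.33 ± 0.12 (SE, adjusted p = 2.40e-04). Glutathione S-transferases rose in 18 of 32 and fell in 9. Within one gene cluster GstD5 had 11.1 and 11.9 FPKM in the driver control and 0.608 and 0.608 FPKM in the UAS-APP control, a log2 difference of 3.23 ± 0.11 (SE, adjusted p = 6.86e-06), while GstD9 had 9.98 and 10.2 FPKM in the driver control and 66.6 and 64.1 FPKM in the UAS-APP control, a log2 difference of -2.31 ± 0.08 (SE, adjusted p = 6.52e-06).

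Stress and redox genes rose in part. Of 24 antioxidant genes, 18 were higher and 1 lower. Both subunits of the enzyme that starts glutathione synthesis were higher, with log2 differences of 0.87 for Gclc and 0.87 for Gclm. The metallothionein genes split, with MtnC at 105 and 102 FPKM in the driver control and 41.6 and 41.3 FPKM in the UAS-APP control (log2 difference 1.57, adjusted p = 2e-05) and MtnA at 242 and 238 FPKM in the driver control and 646 and 638 FPKM in the UAS-APP control (log2 difference -1.14, adjusted p = 8.61e-05). Heat shock genes held 11 higher and 2 lower of 29, with a list median of 0.11 that was -0.16 without centring. Of the 29 genes, 14 lay between 20 and 100 FPKM and 5 at 100 FPKM or more, where 40.6% and 54.8% of all genes were higher. Hsp68, which is induced by heat, had 66.2 and 63.9 FPKM in driver control libraries, against 11.6 and 8.81 FPKM in UAS-APP control libraries, a log2 difference of 2.84 ± 0.13 (SE, adjusted p = 1.84e-05), and the small heat shock gene Hsp26 had 148 and 147 FPKM in the driver control and 44.4 and 32.3 FPKM in the UAS-APP control, a log2 difference of 2.21 ± 0.14 (SE, adjusted p = 6.40e-05). The heat-inducible genes Hsp23, Hsp67Bc and Hsp70Bc did not pass. The other tested Hsp70 genes, Hsp70Ba, Hsp70Bb, Hsp70Ab and Hsp70Aa, were called higher, with log2 differences of 2.43, 1.56, 0.73 and 0.45. The constitutive chaperone genes of the CCT ring did not pass in any of their 8 members.

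Sarcomere genes were higher in the driver control. They rose in 24 of 27 and fell in 0, with a median of 0.65. Of the 27 genes, 12 lay between 20 and 100 FPKM and 9 at 100 FPKM or more, where 40.6% and 54.8% of all genes were higher. The actin gene Act79B, of leg and tubular muscle, had 267 and 277 FPKM in driver control libraries, against 77.2 and 96.0 FPKM in UAS-APP control libraries, a log2 difference of 1.92 ± 0.11 (SE, adjusted p = 4.67e-05), and the myosin heavy chain gene Mhc had 146 and 146 FPKM in the driver control and 114.9 and 108 FPKM in the UAS-APP control, a log2 difference of 0.66 ± 0.08 (SE, adjusted p = 5.90e-04). Glycolytic genes were called higher after centring in 10 of 13 and lower in 0. The median was 0.33, and -0.06 with quantile normalization. Centring added 0.27 to each difference. Gapdh2, called higher, had 527 and 547 FPKM in the driver control and 527 and 546 FPKM in the UAS-APP control. Of the 13 genes, 10 lay at 100 FPKM or more, where 54.8% of all genes were higher. Hex-C, a hexokinase, had 143 and 137 FPKM in the driver control and 59.1 and 74.0 FPKM in the UAS-APP control, a log2 difference of 1.34 ± 0.11 (SE, adjusted p = 1.88e-04). Nuclear genes of the respiratory chain were called higher after centring in 36 of 67 and lower in 1. The median was 0.33, and -0.01 with quantile normalization. Of the 67 genes, 53 lay at 100 FPKM or more, where 54.8% of all genes were higher. Trehalose and glycogen genes were called higher after centring in 6 of 11 and lower in 0. Of the 11 genes, 5 lay at 100 FPKM or more and 4 between 20 and 100 FPKM, where 54.8% and 40.6% of all genes were higher. Among the 6 was the trehalose synthase gene Tps1 with 293 and 300.5 FPKM in the driver control and 167 and 208 FPKM in the UAS-APP control, a log2 difference of 0.94 ± 0.12 (SE, adjusted p = 7.93e-04).

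Genes of protein synthesis and turnover had medians whose sign turned with the scaling. Cytosolic ribosomal protein genes held 15 higher and 4 lower of 78, with a median of 0.14 that was -0.13 without centring and -0.20 with quantile normalization. Of the 78 genes, 76 lay at 100 FPKM or more, where 54.8% of all genes were higher and the median was 0.36. Proteasome genes held 14 higher and 0 lower of 32, with a median of 0.23 that was -0.04 without centring. Of the 32 genes, 30 lay between 20 and 100 FPKM, where 40.6% of all genes were higher. Mitochondrial ribosomal protein genes held 12 higher and 7 lower of 70, with a median of 0.04 that was -0.23 without centring and -0.03 with quantile normalization.

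Genes of protein export and folding in the endoplasmic reticulum held 9 higher and 2 lower of 32, with a median of 0.13 that was -0.14 without centring. Of the 32 genes, 16 lay between 20 and 100 FPKM and 11 at 100 FPKM or more, where 40.6% and 54.8% of all genes were higher. Mitochondrially encoded genes held 2 higher and 1 lower of 12. Cuticle protein genes were mostly too low to test. The 29 tested held only the more abundant ones, of which 16 were higher and 7 lower.

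Juvenile hormone genes went both ways, with 3 higher and 4 lower of 12. The hydrolase genes Jheh1 and Jheh3, which inactivate the hormone, were higher by log2 differences of 1.16 and 1.05, while Jheh2 did not pass (log2 difference 0.04) and was called lower without UAS-APP control replicate 1 and higher without replicate 2. The esterase gene Jhe, which also inactivates it, was lower, with 0.939 and 1.02 FPKM in the driver control and 3.14 and 3.70 FPKM in the UAS-APP control, a log2 difference of -0.89 ± 0.13 (SE, adjusted p = 0.00171). jhamt, which makes the hormone, was lower as well, with 44.7 and 45.0 FPKM in the driver control and 71.0 and 82.4 FPKM in the UAS-APP control, a log2 difference of -0.49 ± 0.09 (SE, adjusted p = 0.0049). Vacuolar proton pump genes split by subunit copy, with 13 higher and 4 lower of 20. The copies VhaM9.7-a and VhaM9.7-b had log2 differences of -1.58 and 0.68, and the copies Vha68-1 and Vha68-2 had -0.64 and 0.65. Vha100-5, of another subunit, had 1.52. Of the 20 genes, 12 lay at 100 FPKM or more, where 54.8% of all genes were higher. Of 12 tested replication and mitosis genes 5 were higher and 1 lower, where PCNA, the replication clamp, had 2.62 and 3.23 FPKM in the driver control and 0.812 and 0.690 FPKM in the UAS-APP control, a log2 difference of 1.43 ± 0.14 (SE, adjusted p = 3.30e-04).

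Of the 10 highest and 10 lowest genes, 18 had a tested neighbour within 5 kb. They formed 47 pairs, which count Yp1 with Yp2 from both sides. The neighbour was called in the same direction in 22 pairs and in the opposite direction in 12, and was not called in 13. Of all genes, 26.7% were called higher and 24.1% lower. Beside the yolk and Jonah genes, CG7214 (2L, 7743682 to 7744839) had 101.02 and 107 FPKM in driver control libraries, against 0.687 and 0.764 FPKM in UAS-APP control libraries, a log2 difference of 6.20 ± 0.09 (SE, adjusted p = 3.01e-07). Its neighbour within 5 kb, the adult cuticle protein gene Acp1, was also higher, with a log2 difference of 3.96 (adjusted p = 1.52e-05). CG43680 (3L, 15052998 to 15053351) had 45.5 and 41.5 FPKM in driver control libraries and 0 and 0.160 FPKM in UAS-APP control libraries, under the floor of 3 fragments there and thus at least 95.2-fold higher. Its neighbours CG43679 and CG12310 were higher, with log2 differences of 2.42 (adjusted p = 6.61e-06) and 1.91 (adjusted p = 1.05e-04). Sytbeta, also within 5 kb, was not called. CG7017, CG8562 and CG17192 had log2 differences of 4.32, 4.31 and 4.03, and CG17192 stood at 314 and 305 FPKM in the driver control and 16.8 and 28.6 FPKM in the UAS-APP control.

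On the lower side, CG8329 (3L, 9638112 to 9639021) had 5.48 and 5.48 FPKM in driver control libraries, against 1008 and 926 FPKM in UAS-APP control libraries, a log2 difference of -6.95 ± 0.08 (SE, adjusted p = 1.40e-07). CG3088 (3L, 9600490 to 9601325), on the same arm, had 14.7 and 16.1 FPKM in the driver control and 806 and 722 FPKM in the UAS-APP control, a log2 difference of -5.28 ± 0.09 (SE, adjusted p = 5.99e-07). The most abundant of these genes, CG8343 (2R, 6179726 to 6180356), had 50.7 and 50.5 FPKM in driver control libraries, against 1734 and 1680.4 FPKM in UAS-APP control libraries, a log2 difference of -4.78 ± 0.08 (SE, adjusted p = 5.19e-07). Its neighbour CG11211 was lower too, with a log2 difference of -4.02 (adjusted p = 8.78e-07), while Cyp6w1, also within 5 kb, was higher, with 1.05 (adjusted p = 9.09e-05), and Ptr was not called. CG9676 (X, 16699152 to 16700170) had 6.79 and 6.28 FPKM in the driver control and 345 and 294 FPKM in the UAS-APP control, a log2 difference of -5.13 ± 0.10 (SE, adjusted p = 8.78e-07), whereas its neighbours within 5 kb CG9673, CG4653 and sphe were higher, with log2 differences of 0.93 (adjusted p = 5.12e-04), 1.01 (adjusted p = 2.49e-04) and 1.28 (adjusted p = 4.42e-04), CG4678 was lower, with -0.92 (adjusted p = 5.12e-04), and Septin4 was not called. The cuticle protein gene Cpr72Ec (3L, 16365894 to 16367340) had 9.69 and 9.63 FPKM in the driver control. It had 492 and 409 FPKM in the UAS-APP control, a log2 difference of -5.13 ± 0.10 (SE, adjusted p = 8.78e-07). Its neighbour CG4842 was lower, with a log2 difference of -2.05 (adjusted p = 3.14e-05), and roq was not called. CG7829, CG32523, CG9377 and CG13071 completed the 10 lowest with log2 differences of -4.52, -4.40, -4.34 and -4.14. Whether genes named only by CG numbers encode enzymes of the families listed above was not examined.

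**Figure D5:**
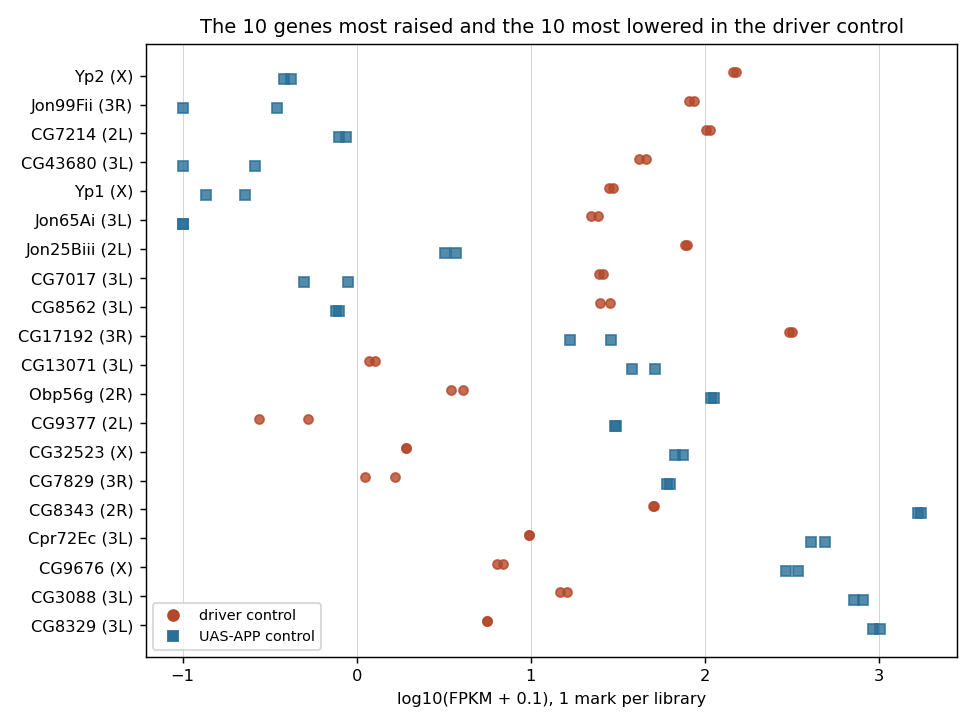
log10(FPKM + 0.1) of the 10 genes with the largest and the 10 with the lowest log2 difference among called genes with a mean of at least 5 FPKM in a group, with the chromosome arm in brackets. Red circles are driver control libraries and blue squares UAS-APP control libraries, 1 mark per library, and no gene shown has overlapping groups.

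Genes at or above a floor of 3 fragments in one line alone were more numerous for the UAS-APP control. In all, 114 genes had at least 3 fragments in both driver control libraries and fewer in both UAS-APP control libraries, and 262 genes had the reverse. The deposited table held 14767 genes. The rule sets no margin at the floor, so it can count genes whose few fragments differ within counting error. The carbonic anhydrase gene CAH5 (3R, 31262598 to 31263878) had 0 and 0.0480 FPKM in driver control libraries and 16.2 and 14.1 FPKM in UAS-APP control libraries, at least 104.3-fold higher in the UAS-APP control. CG3397 (3R, 11983098 to 11984541) had no fragment in driver control libraries and 13.003 and 16.4 FPKM in UAS-APP control libraries, at least 113-fold higher there. prim and 2 noncoding genes, CR44028 and lncRNA:CR44089, had at least 20.3, 8.36 and 7.38-fold higher levels in the UAS-APP control. In the other direction, CG17571 and CG13043 were at least 44.8-fold and 14.7-fold higher in the driver control. All such fold limits divide the mean FPKM of one group by the mean floor of the other, without centring. A limit from the lower library alone would be smaller, as for CG13043 with 2.81 and 4.57 FPKM in driver control libraries.

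The chromosome arms held like shares of higher genes, apart from the small chromosome 4. Of its 85 tested genes, 9.41% were higher and 44.7% lower, with a median of -0.28. The X chromosome had 23.4% of 1487 genes in each direction. On the other major arms, between 26.5% and 28.8% were higher and between 22.7% and 26.1% lower.

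Beside elav-Gal4 UAS-APP flies of the same table, the 2 controls did not stand at one level for the groups above. The elav-Gal4 UAS-APP comparison uses these same control libraries, so levels are given without a test. The midgut lists took 0.256% of fragments in each elav-Gal4 UAS-APP library, beside 9.94% and 10.1% in driver control libraries and 4.90% and 5.27% in UAS-APP control libraries. The nerve lists took 4.33% and 4.28% in elav-Gal4 UAS-APP libraries, and photoreceptor genes took 7.38% and 7.36%. Appl stood at 168 and 168 FPKM and elav at 20.3 and 20.6 FPKM in elav-Gal4 UAS-APP libraries. For CG7214 the elav-Gal4 UAS-APP libraries, at 135 and 134 FPKM, stood near the driver control, and for Yp2, at 0.463 and 0.492 FPKM, near the UAS-APP control.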

How the data were processed

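RNA of adult male flies was sequenced by the submitters from poly(A)-selected libraries as paired-end reads, per the labels' protocols. The submitters' processing notes name build BDGP6, Bowtie2 2.2.3, HISAT2 2.1.0 and TopHat2, with no role given, and no source used here names the program behind the FPKM values. No strand marking is stated, so reads of overlapping genes cannot be separated by strand. The authors deposited FPKM values per gene and library in 1 table with 14767 genes. FPKM steps gave whole fragments for 98.8% to 98.9% of values (tolerance 0.02 of a fragment), which gives the totals printed and the floor of 3 fragments per library. Floors cover counting error only, while standard errors come from the spread between libraries.

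From these values, log2(FPKM + 1) of the 9238 genes with FPKM of 1 or more in 2 or more of the 4 libraries was fitted with limma 3.58.1 in R 4.3.3, with 1 term for the group and p-values adjusted by the Benjamini-Hochberg method over all 9238 genes. The median difference of all kept genes was subtracted before testing. A fold change on this scale understates that of low genes. The fit was tested on simulated data with 1 spread for all libraries. That setting does not cover the unequal spread of the groups here. Gene lists were matched by symbol or identifier (1550 memberships of 54 lists, 57 names not matched) and are described by counts and medians. Members and lists were chosen with earlier results of these data known. Alternatives were a pseudocount of 0.1, no filter or one at FPKM 5, quantile normalization, no centring, the replicate number as a block, differences required to pass a fold minimum of 2, all 6 libraries of the table in 1 fit, the median of genes outside the gut lists, and leaving out each library. voom on recovered fragments was added after seeing the data.

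Genes named were w, elav, Appl, Shal and TrpA1, the 10 highest and 10 lowest differences among called genes without overlap and with at least 5 FPKM as the mean of one group, up to 5 genes a direction found in 1 group alone, neighbours of these, and in each list the called members with the smallest adjusted p, the most abundant members and members against the list's direction. Arr1, Cyp6g1, Dso2, Eps-15, Mhc, Nrg, Rh2, RyR, VAChT, brp, norpA, retinin, yip7, Fas2, Uro, bcd, deltaTry, gammaTry, osk, salt, Hsp23, Hsp67Bc and Hsp70Bc fall outside this rule and were chosen after seeing their values. The same holds for Hsp70Aa, Hsp70Ab and Hsp70Bb. Tables of Shal495 and TrpA1 flies entered no test.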

Additional observations from a re-analysis of the deposited data

How the results depend on the processing

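Among 9238 genes, 2462 were called higher and 2230 lower in the driver control. Without centring the counts were 1499 higher and 4449 lower, since every difference moved by the subtracted median. A fold minimum of 2 left 260 higher and 169 lower. Leaving out each library in turn gave 1691 to 3145 higher and 1457 to 2771 lower calls, with the lone library assumed to vary like the others. Lower calls numbered 1476 without driver control replicate 1 and 1457 without replicate 2, and 2493 without UAS-APP control replicate 1 and 2771 without replicate 2. Higher calls numbered 1691 and 1732 without driver control replicates 1 and 2, and 2833 and 3145 without UAS-APP control replicates 1 and 2. The cause was not tested. Replicate numbers did not pair the libraries (r = 0.0253 between deviations of same-numbered libraries over 9238 genes), and a fit with the replicate number as a block gave 2540 higher and 2332 lower and changed no call of a named gene. With voom on recovered fragments 2635 were higher and 2404 lower of 9850 tested. The other counts, with another pseudocount, filter, quantile normalization, 6 libraries or the median of genes outside the gut lists, ranged from 1971 to 2728 higher and 1780 to 2736 lower. Of 2368 values of 170 named genes under 14 alternatives, 2265 kept direction and call, 89 lost the call (75 of them under the fold minimum), 14 gained one, and no called gene reversed. List medians moved by more than their spread in 187 of 756 cases. Genes under 5 FPKM rest on few fragments, and values near 3 fragments cannot show a difference.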

Other observations

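Levels of a few genes that separated the control lines are given for the other groups of the series, which are held in tables normalized separately, so no comparison across tables is made. Yp2, the yolk protein gene, stood at 313 and 351 FPKM in Shal495 libraries and 0.955 and 1.05 FPKM in w1118 libraries. It stood at 0.129 and 0.257 FPKM where elav-Gal4 drove UAS-TrpA1, and at 393 and 404 FPKM in UAS-TrpA1 control libraries. Some groups labelled male thus held Yp2 above 100 FPKM, and others near or under 1 FPKM. lncRNA:roX2 stood at 24.4 and 19.6 FPKM in Shal495 and 50.9 and 44.3 FPKM in w1118. It stood at 96.3 and 91.2 FPKM where elav-Gal4 drove UAS-TrpA1, beside 21.4 and 21.2 FPKM in UAS-TrpA1 control libraries.

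CG7214 and Acp1, neighbours on arm 2L, also varied widely. CG7214 stood at 7.94 and 140.4 FPKM in Shal495 and 0.990 and 2.62 FPKM in w1118, so that replicates of Shal495 differed by over 10-fold. It stood at 0.749 and 1.25 FPKM where elav-Gal4 drove UAS-TrpA1, beside 858 and 916 FPKM in UAS-TrpA1 control libraries. Acp1 stood at 4.75 and 29.2 FPKM in Shal495 and 1.40 and 2.80 FPKM in w1118. CG3397, absent from the driver control, was listed at 0 in both w1118 libraries and stood at 10.96 and 14.8 FPKM in Shal495. Jonah and trypsin genes took 0.116% and 0.0771% of fragments in Shal495 libraries and 0.151% and 0.0905% in w1118 libraries. They took 0.430% and 0.446% where elav-Gal4 drove UAS-TrpA1, beside 0.789% and 0.801% in UAS-TrpA1 control libraries.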
